A study of Mus musculus with 23 samples.

Results

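The genes described here are 37 endoplasmic reticulum (ER) chaperones, folding enzymes, degradation factors and components of the unfolded protein response (UPR), taken by gene symbol from the 20599 genes of the TPM table (transcripts per 1000000 transcripts, a level scaled for transcript length and library size). All 37 were found, and all 37 passed the filter on low values (a TPM of 1 or more in 3 or more of the 9 RNA libraries), which left 15031 genes for testing. RNA was measured in β-TC6 cells, a line derived from an insulinoma of transgenic mice, in 3 groups of 3 libraries each: WT cells with no engineered mutation, Bmal1-/- cells lacking exon 8 of Bmal1 and Clock-/- cells lacking exons 6 to 7 of Clock, both deletions made with CRISPR-Cas9. All were grown in 15% serum with no further treatment, and cells of every group were at passages 5 to 15. Each knockout is 1 clone grown from a hand-picked colony, and the 3 libraries of a group came from wells of the same line, so p-values cover variation among wells, and genotype and clone cannot be told apart. THRAP3 chromatin immunoprecipitation (ChIP) peaks were compared in 2 WT and 2 Bmal1-/- libraries.

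The ER of a β cell folds and oxidises proinsulin before it is sent to secretory granules. When unfolded protein builds up, 3 sensors in the ER membrane respond: IRE1α (Ern1), which splices the mRNA of Xbp1, ATF6, which is cut to release a transcription factor, and PERK (Eif2ak3), which phosphorylates eIF2α and so favours translation of ATF4. XBP1 and ATF6 induce chaperones and the degradation machinery, and ATF4 induces amino acid synthesis and transport genes and stress regulators such as Trib3, Chac1 and Ddit3. Because Xbp1 splicing, ATF6 cleavage and ATF4 translation act after transcription, gene-level TPM shows the mRNA amount of these regulators and not their activity.

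The TPM of each library sum to 1000000, and the depth behind them is unknown. Between 687 and 1010 genes were listed at 0 in the WT and Clock-/- libraries and between 2189 and 2691 in the Bmal1-/- libraries. Gene-level TPM does not test an exon deletion: Clock was at 45.8 ± 4.48 TPM for WT, 34.2 ± 2.92 for Bmal1-/- and 36.9 ± 9.32 for Clock-/-, and Arntl, the gene of BMAL1, at 3.79 ± 0.378, 3.42 ± 0.104 and 13.3 ± 2.78 (mean ± SD, n = 3 each, as for all means below). The 19 β-cell markers summed to 61197 to 63590 TPM for WT, 45420 to 48738 for Bmal1-/- and 38760 to 44360 for Clock-/- libraries. Ins2 and Iapp make up most of these sums, and gene by gene the markers were divided. In Bmal1-/- cells 3 rose and 7 fell (limma, adjusted p under 0.01), against 18.4% and 21% of all genes tested. In Clock-/- cells 5 rose and 9 fell, against 9.5% and 14.4%. Median log2 fold changes of the markers were 0.03 and -0.39. Of the 13 exocrine, duct, stromal and immune markers, 7 are in the table, and they summed to at most 9.45 TPM in any library, with Ptprc at 0 to 0.125 TPM. Among the other islet hormones, glucagon (Gcg) was at 476 ± 15.3, 52.2 ± 2.44 and 1225 ± 77.3 TPM in WT, Bmal1-/- and Clock-/- cells. Somatostatin (Sst) moved in the same directions, at 88 ± 4.99, 20.5 ± 3.23 and 341 ± 47.4 TPM. Irx1 and Irx2, transcription factors of the α cell, did not follow Gcg, at 7.04 ± 0.474, 29.7 ± 3.94 and 4.1 ± 0.557 TPM and at 11.5 ± 0.564, 33.5 ± 1.32 and 14.9 ± 1.94 TPM.

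RefSeq promoters (250 bases before to 50 bases after the gene start, GRCm38.p6) were at hand for 33 of the 37 genes, and 5 motifs were searched on both strands. The ER stress response element (ERSE, CCAAT and CCACG separated by 9 bases), which ATF6 binds together with NF-Y, was found in 9 of the 33 genes, or 27.3%, and in 37 of all 27025 genes with a promoter, or 0.137%, the 9 members included. By promoter it was in 39 of 32851, or 0.119%. The second form (ERSE-II, ATTGG and CCACG separated by 1 base) was in 2 of 33 members and 0.0444% of genes. The ATF4 element TGATGNAA was in 4 of 33 members, 12.1%, against 4.51% of genes, and the E-box CACGTG, to which BMAL1 and CLOCK bind, was in 3 of 33 members, 9.09%, against 8.09%. The UPR element core TGACGTGG was in 0 of 33 members and 0.714% of genes. A match describes these letters only, in these windows only.

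The ERSE matches are shown because they fall in the chaperone, lectin and degradation genes whose levels are given next. Each is printed on the strand that reads CCAAT first, with 10 flanking bases on either side and both parts of the element in capitals.
Hspa5 (chr2:34772015-34772053): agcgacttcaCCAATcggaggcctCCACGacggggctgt
Hsp90b1, nearer match (chr10:86705523-86705561): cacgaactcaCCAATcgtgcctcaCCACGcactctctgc
Hsp90b1, farther match (chr10:86705628-86705666): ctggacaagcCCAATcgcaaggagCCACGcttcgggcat
Dnajc3 (chr14:118937817-118937855): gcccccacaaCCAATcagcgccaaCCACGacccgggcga
Creld2 (chr15:88819510-88819548): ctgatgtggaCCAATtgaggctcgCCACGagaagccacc
Calr (chr8:84847065-84847103): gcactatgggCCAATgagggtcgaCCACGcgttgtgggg
Canx (chr11:50325790-50325828): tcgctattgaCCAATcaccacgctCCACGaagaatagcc
Pdia6 (chr12:17266481-17266519): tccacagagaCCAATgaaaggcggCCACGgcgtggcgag
Syvn1 (chr19:6046522-6046560): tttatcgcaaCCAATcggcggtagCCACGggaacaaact
Derl3 (chr10:75893232-75893270): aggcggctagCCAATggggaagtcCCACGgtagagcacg
The element reads along the gene's own strand in Hspa5, the farther match of Hsp90b1, Canx, Pdia6, Dnajc3 and Syvn1, and along the opposite strand in the rest. The 9 bases between the parts differ in every one of the 10 matches.

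The ERSE-II matches were in Herpud1 and Dnajb11, and the ATF4 elements in Chac1, Trib3, Asns and Herpud1. The ATF4 elements are shown because all 4 of their genes were lower in Bmal1-/- than in Clock-/- cells, as given below.
Herpud1, ERSE-II (chr8:94386368-94386396): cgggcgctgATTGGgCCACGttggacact
Dnajb11, ERSE-II (chr16:22857843-22857871): ccggcggcgATTGGcCCACGcctggctgc
Chac1, ATF4 element (chr2:119351038-119351067): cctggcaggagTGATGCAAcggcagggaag
Trib3, ATF4 element (chr2:152344028-152344057): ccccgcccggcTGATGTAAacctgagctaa
Asns, ATF4 element (chr6:7693214-7693243): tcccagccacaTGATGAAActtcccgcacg
Herpud1, ATF4 element (chr8:94386306-94386335): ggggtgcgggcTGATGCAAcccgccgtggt
Each is printed on the strand on which it reads as named, with its fixed letters and, for the ATF4 element, the free base in capitals. The elements of Trib3 and of Dnajb11 lie just after the annotated start, the others before it.

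In Bmal1-/- cells most of the 37 genes were lower than in WT. Of these, 30 fell against WT and 0 rose (limma on log2(TPM + 1), adjusted p under 0.01), where 21% of all genes tested fell and 18.4% rose. The fitted value was lower than in WT for all 37, with a median log2 fold change of -0.84 beside -0.04 for all genes tested. Of the 30, 13 fell by more than 2-fold, against 7.97% of all genes, and 0 rose by more than 2-fold, against 3.83%. In Clock-/- cells 20 genes fell and 2 rose, against 14.4% and 9.5% of all genes, the median was -0.35 beside -0.02, and 3 fell by more than 2-fold (4.78% of all genes) and 0 rose by that much (2.62%). Levels are of RNA from whole cultures, in which fewer cells of a kind and less RNA per cell cannot be told apart.

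Between the knockout lines, 20 of the 37 genes were lower and 0 were higher in Bmal1-/- than in Clock-/- cells, against 21.8% and 22.8% of all genes tested. By the calls against WT, which share the WT libraries, 17 genes fell in both lines, 11 fell in Bmal1-/- cells but not past the test in Clock-/- cells, 3 fell in Clock-/- cells and did not pass in Bmal1-/- cells, 4 passed in neither, and 2, Trib3 and Chac1, fell in Bmal1-/- and rose in Clock-/- cells. The 4 that passed in neither were Canx, Derl2, Os9 and Ern1. The share of all genes tested with each of these joint patterns was not counted, so how unusual the patterns are was not tested. The summed level of the 37 genes was 22746, 21354 and 21135 TPM for WT, 11878, 11483 and 11806 for Bmal1-/- and 17476, 16559 and 16594 for Clock-/-, with no overlap between groups.

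**Figure D1:**
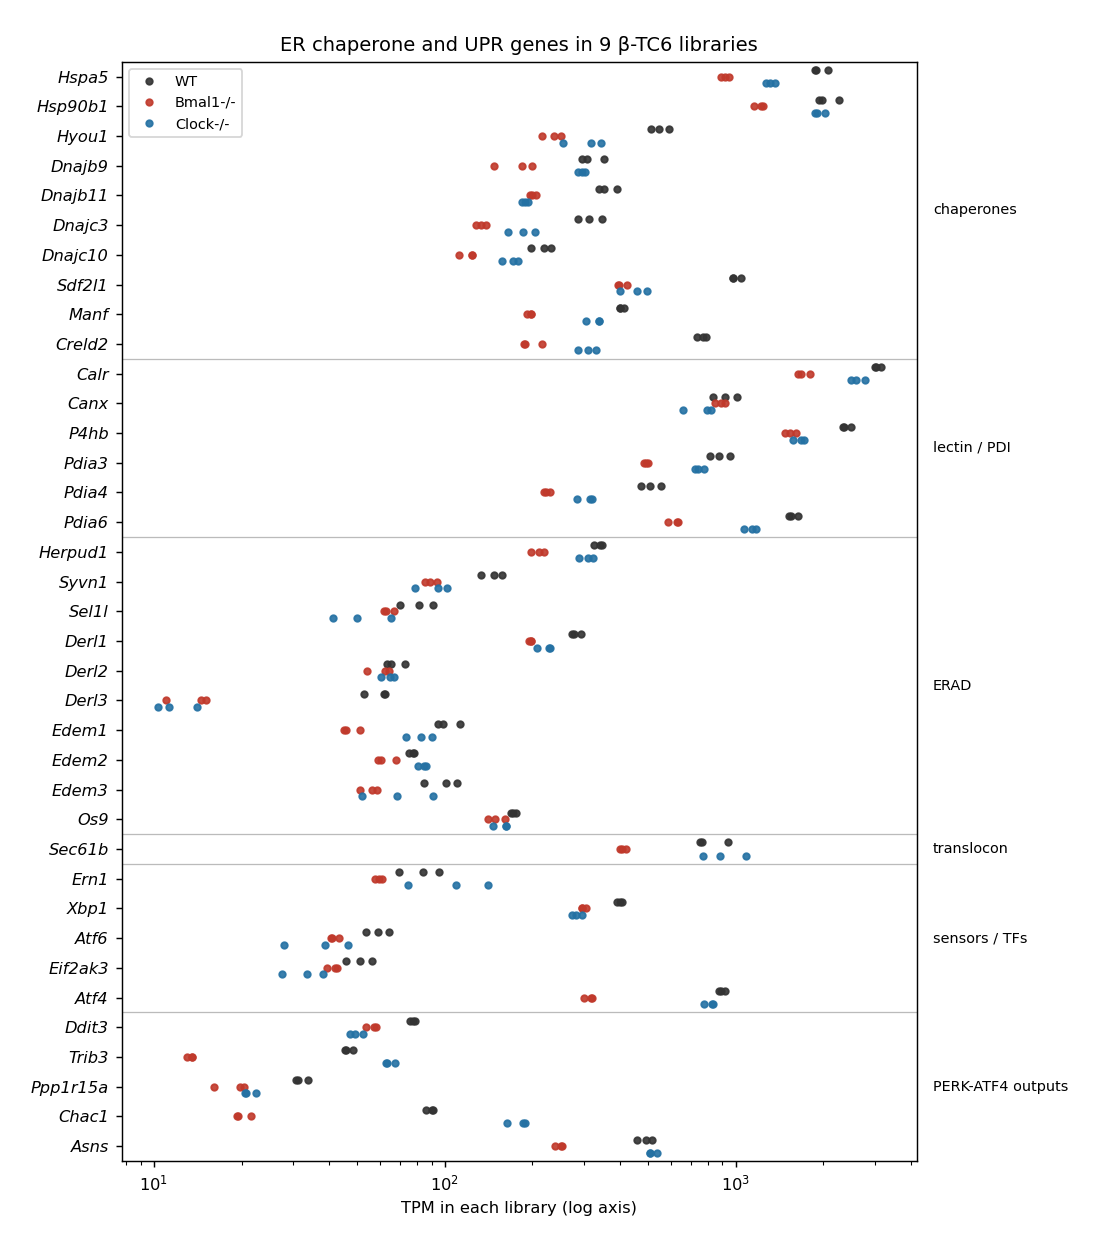
TPM of each of the 37 genes (log axis) in the 9 libraries, 1 point per library, with genes grouped by role and colours for genotype. For Hspa5 the Bmal1-/- points (892 to 945 TPM) lie below the Clock-/- points (1273 to 1367) and the WT points (1869 to 2076), and for Chac1 the Clock-/- points lie above WT and the Bmal1-/- points below it.

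The 2 insulin genes did not change alike. Ins2, the main insulin gene of the mouse β cell, was at 28266 ± 1170 TPM for WT, 20000 ± 1565 for Bmal1-/- and 14566 ± 1874 for Clock-/- cells, and hormone and granin genes made up 5.58 to 5.85% of all TPM in WT, 3.97 to 4.33% in Bmal1-/- and 3.20 to 3.89% in Clock-/- libraries. Ins2 was thus higher in Bmal1-/- than in Clock-/- cells (log2 fold change 0.46, adjusted p = 0.00503), where the ER genes were lower. With TPM rescaled after leaving out these hormone and granin genes, 30 members fell in Bmal1-/- and 21 in Clock-/- cells. Ins1 was at 2307 ± 45.3 TPM for WT, 2361 ± 188 for Bmal1-/- (0.03, adjusted p = 0.734, with overlapping libraries) and 61 ± 3.17 for Clock-/- cells, where it fell by 5.22. The part of hormone mRNA in the change of the ER genes was not tested.

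The chaperones of the Hsp70 and Hsp90 families and their partners fell together. All 10 fell in Bmal1-/- cells (median log2 fold change -1.06) and 8 fell in Clock-/- cells (median -0.66). Hspa5 encodes BiP, the Hsp70 of the ER lumen that also holds the 3 sensors inactive. It was at 2076, 1891 and 1869 TPM in WT wells, 917, 892 and 945 in Bmal1-/- wells and 1367, 1316 and 1273 in Clock-/- wells. The 3 groups did not overlap, and log2 fold changes were -1.08 ± 0.06 (SE, adjusted p = 8.96e-07) in Bmal1-/- and -0.56 ± 0.06 (adjusted p = 0.00011) in Clock-/- cells. Directly compared, Bmal1-/- cells had the lower level (log2 fold change -0.52, adjusted p = 8.08e-05). The ERSE of Hspa5 stands in capitals in the 250 bases before its start, printed here because Hspa5 is the reference target of ATF6.
Hspa5 (chr2:34771840-34772089): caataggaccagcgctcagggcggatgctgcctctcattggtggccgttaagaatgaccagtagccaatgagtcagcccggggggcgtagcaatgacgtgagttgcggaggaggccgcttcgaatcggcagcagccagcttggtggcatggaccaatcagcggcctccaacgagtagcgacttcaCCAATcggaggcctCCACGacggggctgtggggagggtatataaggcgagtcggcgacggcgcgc

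Hyou1, an Hsp110-like nucleotide exchange factor for BiP, was at 591, 545 and 511 TPM in WT wells, 251, 216 and 238 in Bmal1-/- wells and 319, 254 and 344 in Clock-/- wells. Its log2 fold changes were -1.22 and -0.85, both past the test, and both knockout groups lay below every WT library. Creld2 and Manf, small secreted or luminal proteins induced by ER stress, fell as well but unequally. Creld2 was at 770, 736 and 791 TPM in WT wells, 216, 187 and 189 in Bmal1-/- wells and 311, 330 and 286 in Clock-/- wells, the largest fall of the 10 in either line (-1.95 ± 0.08, adjusted p = 6.62e-08, and -1.31 ± 0.08, adjusted p = 1.29e-06). Manf was at 400, 399 and 414 TPM in WT wells, 198, 197 and 191 in Bmal1-/- wells and 340, 340 and 306 in Clock-/- wells. The Manf change was -1.05 in Bmal1-/- cells and -0.30 in Clock-/- cells, where it did not pass the test under 8 of 19 alternative settings.

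The J-domain proteins, which bring substrates to BiP and start its ATPase cycle, did not all follow the same course. Dnajc3 (p58IPK) was at 346, 312 and 286 TPM in WT wells, 128, 133 and 139 in Bmal1-/- wells and 185, 165 and 204 in Clock-/- wells. The groups stood apart, with WT highest and Bmal1-/- lowest. Dnajb9 (ERdj4), which returns BiP to IRE1α, was at 352, 308 and 295 TPM in WT wells, 147, 200 and 184 in Bmal1-/- wells and 304, 286 and 295 in Clock-/- wells. Its WT and Clock-/- libraries overlapped (log2 fold change -0.11, adjusted p = 0.485), while it fell by 0.85 in Bmal1-/- cells. Sdf2l1, a partner of the ER J-domain proteins, was at 979, 978 and 1042 TPM in WT wells, 424, 394 and 398 in Bmal1-/- wells and 458, 494 and 400 in Clock-/- wells, so that the 2 knockout groups overlapped.

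Dnajb11 fell by 0.84 and 0.93, and Dnajc10 by 0.84 and 0.35, in Bmal1-/- and Clock-/- cells, the latter not past the test under 9 of 19 alternatives. Hsp90b1 (GRP94), the ER Hsp90, fell by 0.77 in Bmal1-/- cells and stood at -0.09 (adjusted p = 0.376) in Clock-/- cells. Sdf2l1 and Dnajb11 both lie on chromosome 16, where the median of all genes was shifted by -0.46 in Clock-/- cells. With values centred on the median of their chromosome, Clock-/- changes were -0.70 for Sdf2l1 and -0.48 for Dnajb11, both still past the test, and both were then lower in Bmal1-/- than in Clock-/- cells (-0.61, adjusted p = 0.00273, for Sdf2l1 and -0.37, adjusted p = 0.00147, for Dnajb11).

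The lectin chaperones and protein disulfide isomerases, which hold glycoproteins and form disulfide bonds such as those of proinsulin, include the most abundant member. Of 6, 5 fell in Bmal1-/- cells and 3 in Clock-/- cells. Pdia6 (P5) fell most in Bmal1-/- cells, from 1631, 1546 and 1530 TPM in WT to 630, 587 and 633, a change of -1.35 ± 0.06 (adjusted p = 2.04e-07), and stood at 1174, 1139 and 1068 in Clock-/- libraries, between the other groups. Pdia4 (ERp72) was at 552, 507 and 472 TPM in WT wells, 222, 219 and 229 in Bmal1-/- wells and 320, 285 and 315 in Clock-/- wells, again in 3 separate ranges. Pdia3 (ERp57) fell by 0.85 in Bmal1-/- cells and was at -0.24 (adjusted p = 0.0174) in Clock-/- cells.

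P4hb, the founding disulfide isomerase, was at 2487, 2351 and 2339 TPM in WT wells, 1612, 1479 and 1542 in Bmal1-/- wells and 1718, 1576 and 1676 in Clock-/- wells. The 2 knockout groups overlapped, and both lay below WT. P4hb lies on chromosome 11, whose median was shifted by 0.35 in Bmal1-/- cells, and centred on that median its Bmal1-/- change moved from -0.63 to -0.99 and it was lower in Bmal1-/- than in Clock-/- cells (-0.40, adjusted p = 0.00116). Calreticulin (Calr) was the most abundant of all 37 in WT cells, at 3158, 3010 and 3028 TPM, and it was at 1800, 1638 and 1679 in Bmal1-/- wells and 2784, 2600 and 2493 in Clock-/- wells. It fell by 0.85 in Bmal1-/- cells, and in Clock-/- cells the change of -0.22 did not pass the test (adjusted p = 0.0255) although the libraries did not overlap. Its membrane-bound relative calnexin (Canx) was at 920 ± 88.6 TPM for WT, 886 ± 32.9 for Bmal1-/- and 761 ± 87.7 for Clock-/- and passed in neither line. Centred on chromosome 11, where it also lies, it passed in both, at -0.41 (adjusted p = 0.00114) in Bmal1-/- and -0.33 (adjusted p = 0.0065) in Clock-/- cells.

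**Figure D2:**
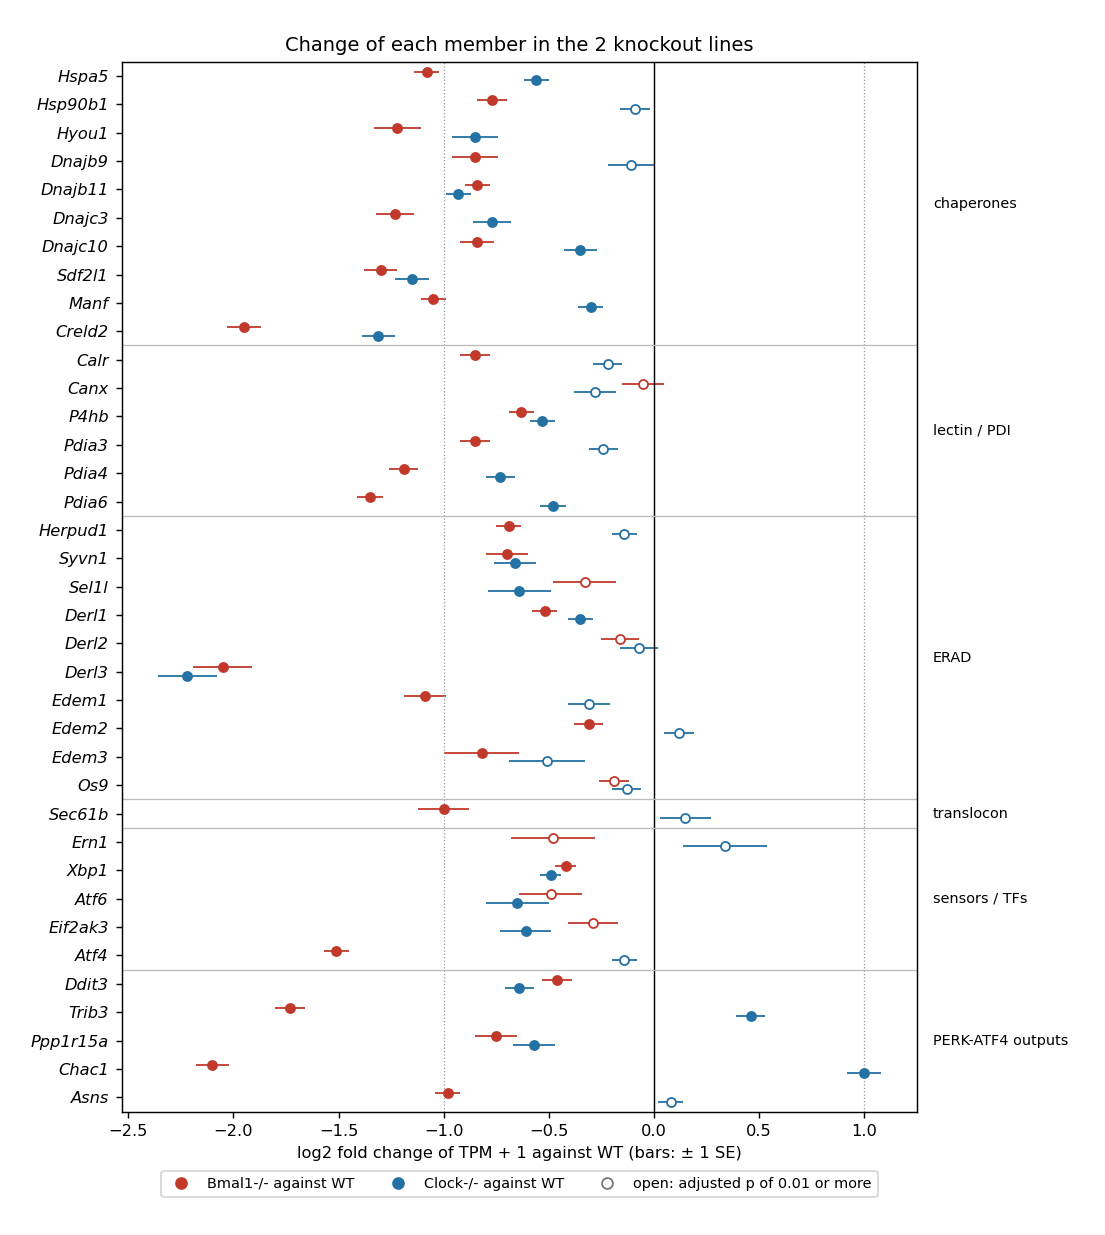
Log2 fold change of TPM + 1 against WT (x axis, bars ± 1 SE) for each gene in Bmal1-/- and Clock-/- cells, n = 3 libraries per group, filled where the adjusted p was under 0.01. All 37 Bmal1-/- points lie left of 0, and Trib3 (0.46) and Chac1 (1.00) are the filled Clock-/- points right of it.

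ER-associated degradation, in which misfolded proteins are drawn back across the membrane and ubiquitinated, was lower for 7 of 10 genes in Bmal1-/- cells and 4 of 10 in Clock-/- cells. Derl3, a derlin of the retrotranslocation complex, had the largest fall of this group in both lines. It was at 62.2, 61.8 and 52.8 TPM in WT wells, 11, 14.5 and 15.1 in Bmal1-/- wells and 11.3, 10.3 and 14.1 in Clock-/- wells. The knockout groups overlapped each other and lay far below WT, with changes of -2.05 ± 0.14 and -2.22 ± 0.14 (adjusted p = 2.69e-06 each). Its relatives had smaller changes: Derl1 fell by 0.52 and 0.35, and Derl2 stood at -0.16 and -0.07, past the test in neither line. Centred on their chromosomes, 15 and 11, Derl1 was at -0.26 in Bmal1-/- cells and at -0.07 in Clock-/- cells (adjusted p = 0.306), and Derl2 fell by 0.51 in Bmal1-/- cells and was lower there than in Clock-/- cells (-0.39, adjusted p = 0.00107). The 250 bases before the Derl3 start are shown because they hold an E-box and, 6 bases further on, an ERSE on the opposite strand, both in capitals.
Derl3 (chr10:75893148-75893397): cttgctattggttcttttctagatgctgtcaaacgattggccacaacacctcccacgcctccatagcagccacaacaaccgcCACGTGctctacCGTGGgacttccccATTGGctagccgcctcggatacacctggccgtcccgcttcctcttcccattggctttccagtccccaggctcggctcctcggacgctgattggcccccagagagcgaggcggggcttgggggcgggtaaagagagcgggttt

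Edem1, a lectin that hands mannose-trimmed glycoproteins to degradation, was at 113, 98.3 and 94.7 TPM in WT wells, 45.8, 45.1 and 51.2 in Bmal1-/- wells and 82.5, 73.3 and 90.1 in Clock-/- wells. It fell by 1.09 in Bmal1-/- cells, and the Clock-/- change of -0.31 did not pass the test (adjusted p = 0.0297). Edem3 and Edem2 fell by 0.82 and 0.31 in Bmal1-/- cells, calls that were lost under 5 and 8 of 19 alternatives, and neither passed in Clock-/- cells. Edem3 lies on chromosome 1, and centred on it the Bmal1-/- change was -0.48 (adjusted p = 0.0118). The Clock-/- libraries of Edem3 spread from 51.7 to 91.4 TPM.

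Syvn1 (HRD1), the ubiquitin ligase of the pathway, was at 157, 148 and 133 TPM in WT wells, 94.3, 85.3 and 88.7 in Bmal1-/- wells and 95, 79.2 and 102 in Clock-/- wells. It fell in both lines, whose libraries overlapped (difference -0.03 ± 0.10, adjusted p = 0.793). Sel1l, its adaptor, fell in Clock-/- cells (-0.64, adjusted p = 0.00813, lost under 11 of 19 alternatives) and was at -0.33 (adjusted p = 0.0903) in Bmal1-/- cells, and the direct comparison did not separate the lines (0.31, adjusted p = 0.103). Without replicate 3 of Clock-/-, Sel1l and Eif2ak3 were higher in Bmal1-/- than in Clock-/- cells, so that 2 members rather than 0 were, and Eif2ak3 was so with median-ratio scaling and with values centred by chromosome. Herpud1, which organises the ligase complex, was at 348, 342 and 326 TPM in WT wells, 219, 198 and 210 in Bmal1-/- wells and 322, 290 and 311 in Clock-/- wells. It fell by 0.69 in Bmal1-/- cells and had a change of -0.14 (adjusted p = 0.118) in Clock-/- cells. Os9 changed by -0.19 and -0.13 and passed in neither.

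Sec61b, the β subunit of the channel through which new chains enter the ER, was at 765, 755 and 938 TPM in WT wells, 419, 407 and 399 in Bmal1-/- wells and 881, 1083 and 771 in Clock-/- wells. It fell by 1.00 in Bmal1-/- cells and overlapped WT in Clock-/- cells (0.15, adjusted p = 0.378). The other genes of protein entry followed the same division. Among 23 further translocon, signal peptidase and signal recognition genes, 20 fell and 0 rose in the Bmal1-/- line, and 3 fell and 0 rose in Clock-/- cells. The median was -0.70 in Bmal1-/- and 0.05 in Clock-/- cells, and 19 of the 23 were lower in Bmal1-/- than in Clock-/- cells and 1 was higher. Ssr3, of the translocon-associated complex, was at 611, 562 and 496 TPM in WT wells, 146, 171 and 167 in Bmal1-/- wells and 445, 384 and 465 in Clock-/- wells, and Sec11c, a signal peptidase subunit, fell by 1.52 in Bmal1-/- cells. The 3 that fell in Clock-/- cells were the signal recognition particle receptor Srpr (-0.64), the translocating-chain protein Tram1 (-0.46, not past the test under 8 of 19 alternatives) and, named for the small count after its value was seen, its low-level relative Tram2 (-0.99).

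N-glycosylation genes showed the same order of the lines. Of 15, 11 fell in Bmal1-/- cells, and 4 fell and 1 rose in Clock-/- cells. The oligosaccharyltransferase subunits Magt1 (-2.02 and -0.79) and Ostc (-1.33 and -0.34) fell in both, the Clock-/- call of Ostc not past the test under 10 of 19 alternatives. Among 24 redox enzymes and other isomerases, 10 fell and 5 rose in the Bmal1-/- line, and 6 fell and 3 rose in Clock-/- cells. Fkbp11, an ER prolyl isomerase, fell from 280, 270 and 262 TPM in WT to 53.6, 38 and 45 in Bmal1-/- wells and 166, 177 and 120 in Clock-/- wells, and Dnajc1 fell by 1.22 in Bmal1-/- cells. Ero1lb, the β-cell ER oxidase, rose by 0.76 in Clock-/- cells, and Qsox1, a sulfhydryl oxidase, rose by 0.61 in Bmal1-/- and fell by 0.65 in Clock-/- cells.

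The 3 KDEL receptors return chaperones that have escaped to the Golgi, and all 3 fell in Bmal1-/- cells and 2 in Clock-/- cells. Kdelr3 was at 93.4, 103 and 91.6 TPM in WT and at 9.68, 10.6 and 9 in Clock-/- libraries, and the Bmal1-/- libraries were at 0.199, 0.464 and 0.582. The changes of Kdelr3 were -6.11 ± 0.12 in Bmal1-/- and -3.18 ± 0.12 in Clock-/- cells on the log2(TPM + 1) scale, which understates changes at such low levels. The Bmal1-/- change is the largest of any gene named here, while in Clock-/- cells Ins1 fell by more (-5.22). Kdelr2, the most abundant, was at 754, 753 and 755 TPM in WT wells, 368, 380 and 398 in Bmal1-/- wells and 583, 573 and 544 in Clock-/- wells. Kdelr1 fell by 0.42 in Bmal1-/- cells and stood at -0.01 in Clock-/- cells.

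In the glycan trimming and lectin cycle, 3 of 10 genes fell in Bmal1-/- and 2 in Clock-/- cells, among them the folding sensor Uggt1, which fell by 1.00 and 0.96, and the cargo lectin Lman1 (-1.11 and -0.56, the latter lost under 4 of 19 alternatives). Of 24 further degradation genes, 8 fell and 3 rose in Bmal1-/- cells, and 8 fell and 2 rose in Clock-/- cells. Selenos fell by 1.17 and Ubxn4 by 0.85 in Bmal1-/- cells, while Sel1l3 rose by 0.90 and Tmub1 fell by 0.59 in Clock-/- cells. Of 14 ER-phagy and ER calcium genes, 1 rose and 4 fell in Bmal1-/- cells, and 3 rose and 4 fell in Clock-/- cells. The counts of these lists stand beside 21% fallen and 18.4% risen of all genes tested in Bmal1-/- cells. For Clock-/- cells the shares of all genes were 14.4% and 9.5%. The ER-phagy receptor Retreg1 (FAM134B) rose in both, from 22.3, 20.2 and 16.4 TPM to 45.8, 52 and 51.7 in Bmal1-/- wells and 78.6, 66.3 and 81.1 in Clock-/- wells, and the calcium-binding Rcn3 fell by 1.44 and 1.01.

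Chaperones of other compartments were divided. Of 16 cytosolic heat shock chaperones, 5 fell and 4 rose in Bmal1-/- cells and 4 fell and 0 rose in Clock-/- cells, with summed levels of 5584 to 5739 TPM in Bmal1-/- libraries beside 5671 to 6009 in WT. Of 12 mitochondrial chaperones and proteases, 5 fell and 3 rose in Bmal1-/- cells and 2 fell and 2 rose in Clock-/- cells. Their summed levels were 1349 to 1405 TPM in Bmal1-/- libraries, below the 1726 to 1841 TPM of WT.

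**Figure D3:**
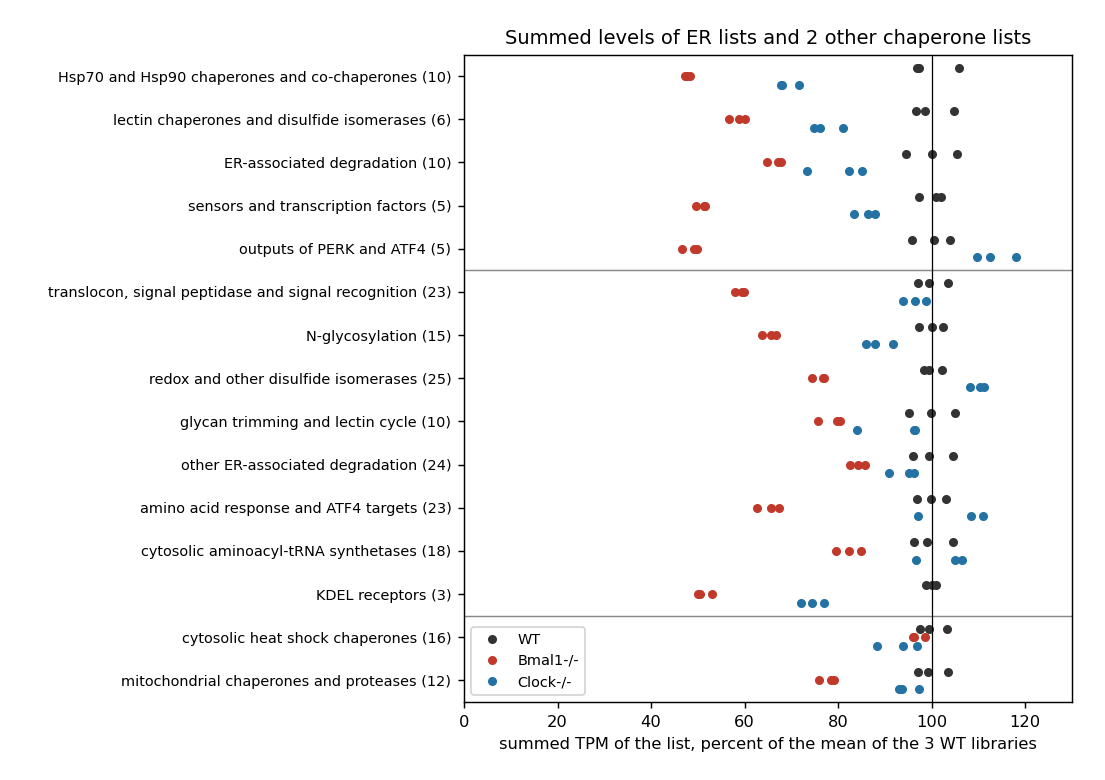
Summed TPM of each list in each library as a percent of the mean of the 3 WT libraries (x axis), with the number of genes in brackets (all in the table, also those too low to be tested), for the members by role (top, without the single translocon gene), 8 of the 10 other ER and amino acid lists (middle) and 2 chaperone lists of other compartments (bottom). Sums are dominated by abundant genes. The Bmal1-/- points of the ER chaperones (3757 to 3830 TPM) lie below the Clock-/- points (5384 to 5679 TPM), while the Bmal1-/- points of the cytosolic chaperones (5584 to 5739 TPM) overlap WT. Those of the mitochondrial list (1349 to 1405 TPM) lie below WT (1726 to 1841 TPM).

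Of the 5 sensors and transcription factors, 2 fell in Bmal1-/- cells (Xbp1 and Atf4) and 3 in Clock-/- cells (Xbp1, Atf6 and Eif2ak3). Ern1 was at 95.7, 84.1 and 69.8 TPM in WT wells, 57.4, 59.2 and 60.6 in Bmal1-/- wells and 109, 74.6 and 141 in Clock-/- wells. It passed the test against WT in neither line (-0.48 ± 0.20, adjusted p = 0.0661, and 0.34 ± 0.20, adjusted p = 0.204). Bmal1-/- was below Clock-/- (-0.82, adjusted p = 0.00545), a call lost under 7 of 19 alternatives. Ern1 lies on chromosome 11, and centred on its chromosome it was at -0.83 in Bmal1-/- cells (adjusted p = 0.00168).

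Atf6 was at 64.5, 58.8 and 53.5 TPM in WT wells, 40.6, 40.9 and 43.3 in Bmal1-/- wells and 38.6, 28.1 and 46.5 in Clock-/- wells. Every knockout library lay below every WT library, and the Clock-/- change passed (-0.65, adjusted p = 0.00801), though not under 12 of 19 alternatives, while the Bmal1-/- change of -0.49 did not (adjusted p = 0.022). Atf6 lies on chromosome 1, and centred on it the change was -0.40 (adjusted p = 0.0176) in Clock-/- and -0.14 (adjusted p = 0.288) in Bmal1-/- cells. Eif2ak3, the gene of PERK, was at 56, 51.1 and 45.7 TPM in WT wells, 42, 39.3 and 42.6 in Bmal1-/- wells and 33.6, 27.6 and 38 in Clock-/- wells. It fell by 0.61 in Clock-/- cells, a call lost under 3 of 19 alternatives, and was at -0.29 (adjusted p = 0.0584) in Bmal1-/- cells.

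Xbp1, counted over spliced and unspliced forms together, was at 407, 390 and 400 TPM in WT wells, 305, 296 and 296 in Bmal1-/- wells and 297, 274 and 282 in Clock-/- wells. Its changes were -0.42 ± 0.05 in Bmal1-/- and -0.49 ± 0.05 in Clock-/- cells, and the knockout groups overlapped (difference 0.07 ± 0.05, adjusted p = 0.26). Centred on chromosome 11, Xbp1 was at -0.77 in Bmal1-/- and -0.54 in Clock-/- cells, and it was lower in Bmal1-/- than in Clock-/- cells (-0.23, adjusted p = 0.0086). Of 19 further sensors, eIF2α kinases and stress transcription factors, 4 fell and 2 rose in the Bmal1-/- line and 4 fell and 0 rose in Clock-/- cells. Cebpb fell from 51.9, 55.5 and 64.3 TPM to 17.2, 15.4 and 16.5 in Bmal1-/- wells and 31.5, 35.7 and 33.3 in Clock-/- wells. Crebrf, a brake on the UPR, rose by 1.15 in Bmal1-/- cells, and the stress gene Nupr1 fell by 1.82 in Clock-/- cells.

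Atf4, the factor downstream of PERK and of the amino acid sensor GCN2, differed between the lines. It was at 893, 915 and 876 TPM in WT wells, 320, 302 and 318 in Bmal1-/- wells and 829, 835 and 775 in Clock-/- wells. It fell by 1.51 ± 0.06 (adjusted p = 5.11e-08) in Bmal1-/- cells, and the Clock-/- change of -0.14 ± 0.06 did not pass the test (adjusted p = 0.0803). The direct difference between the lines was -1.37 ± 0.06 (adjusted p = 7.39e-08). Atf4 lies on chromosome 15, whose median was shifted by -0.25 in Bmal1-/- and -0.28 in Clock-/- cells, and centred on it Atf4 was at -1.26 and 0.14.

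The outputs of PERK and ATF4 fell together in Bmal1-/- cells, where all 5 passed, and were divided in Clock-/- cells, where 2 rose, 2 fell and 1 did not pass. Chac1, a glutathione-degrading enzyme induced through ATF4, was at 90.9, 86.4 and 90.1 TPM in WT wells, 21.6, 19.3 and 19.5 in Bmal1-/- wells and 189, 164 and 185 in Clock-/- wells. The groups lay far apart, with changes of -2.10 ± 0.08 (adjusted p = 4.31e-08) and 1.00 ± 0.08 (adjusted p = 7.27e-06) against WT and -3.09 ± 0.08 (adjusted p = 3.89e-09) between the lines. Trib3, a pseudokinase that restrains AKT and ATF4, was at 48.5, 45.4 and 45.6 TPM in WT wells, 13.5, 13 and 13.5 in Bmal1-/- wells and 67.4, 63.3 and 62.7 in Clock-/- wells. It fell by 1.73 ± 0.07 in Bmal1-/- cells and rose by 0.46 ± 0.07 in Clock-/- cells (adjusted p = 5.97e-08 and 0.000496), with -2.19 between the lines. Both directions of both genes held under all 19 alternatives.

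Asns, asparagine synthetase, was at 517, 493 and 458 TPM in WT wells, 252, 240 and 251 in Bmal1-/- wells and 536, 509 and 509 in Clock-/- wells. It fell by 0.98 in Bmal1-/- cells and overlapped WT in Clock-/- cells. Ddit3 (CHOP) did not share this division. It was at 75.7, 79.1 and 77.7 TPM in WT wells, 58.2, 53.4 and 57 in Bmal1-/- wells and 52.3, 49 and 47.3 in Clock-/- wells, so that it fell in both lines. Ppp1r15a (GADD34), the eIF2α phosphatase subunit, likewise fell in both, by 0.75 and 0.57. The 4 genes with an ATF4 element in their promoter window, Chac1, Trib3, Asns and Herpud1, all fell in Bmal1-/- cells, 2 rose and 0 fell in Clock-/- cells, and all 4 were lower in Bmal1-/- than in Clock-/- cells. Of all 37 members, 30 fell in Bmal1-/- cells, 2 rose and 20 fell in Clock-/- cells, and 20 were lower in Bmal1-/- than in Clock-/- cells. The element of Chac1 is in capitals in the 250 bases before its start, shown because of the 37 genes this one had the largest fold change between the lines. It reads there as its reverse complement.
Chac1 (chr2:119350992-119351241): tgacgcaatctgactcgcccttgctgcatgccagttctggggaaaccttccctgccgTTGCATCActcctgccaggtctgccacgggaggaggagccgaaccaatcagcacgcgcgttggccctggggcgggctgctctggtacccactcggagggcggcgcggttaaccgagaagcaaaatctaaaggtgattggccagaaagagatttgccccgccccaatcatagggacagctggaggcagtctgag

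**Figure D4:**
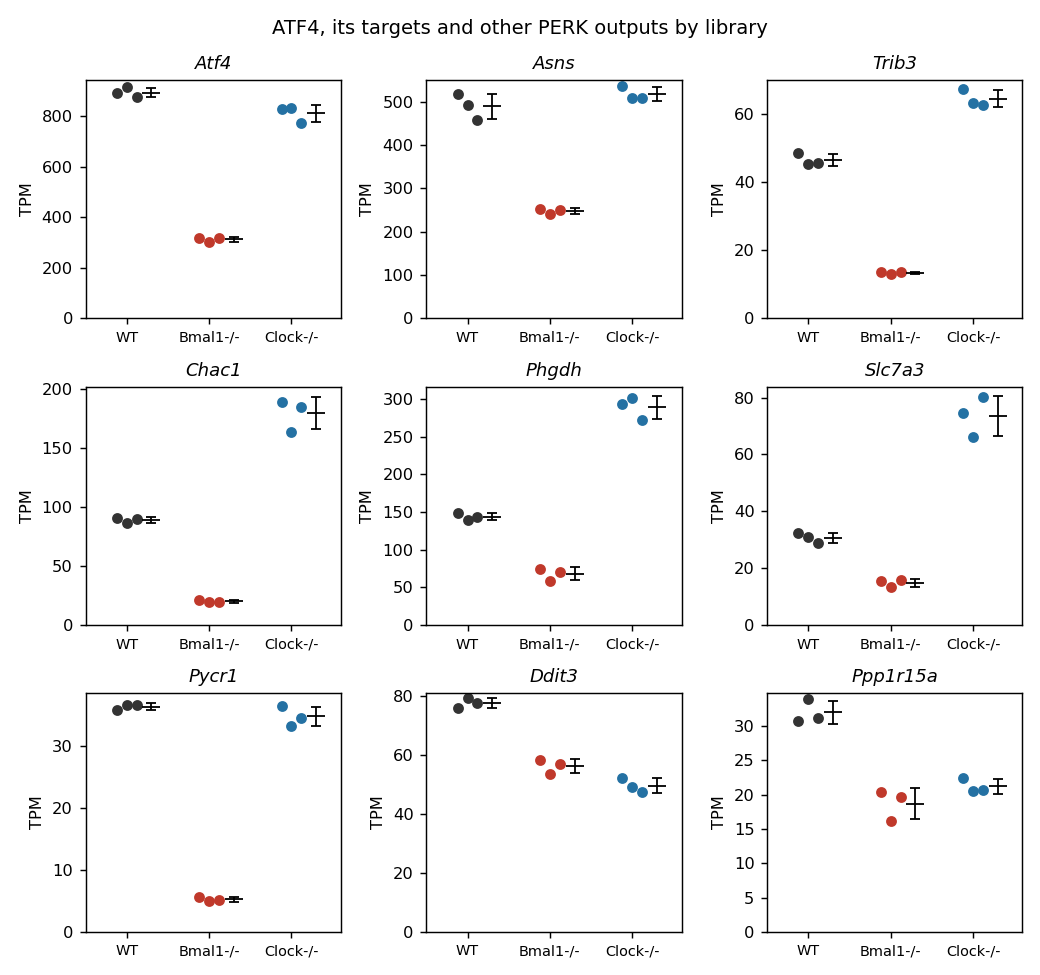
TPM by library (points) with mean and SD (bars, n = 3) of Atf4, its targets Asns, Trib3, Chac1, Phgdh, Slc7a3 and Pycr1, and the PERK outputs Ddit3 and Ppp1r15a. Bmal1-/- libraries are the lowest in every panel but that of Ddit3. Clock-/- libraries lie above WT for Trib3, Chac1, Phgdh and Slc7a3 and below it for Ddit3 and Ppp1r15a.

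The wider set of amino acid response genes, not members, divided in the same way. Of 21, 17 fell and 1 rose in Bmal1-/- cells (median -0.96), 1 fell and 5 rose in Clock-/- cells (median 0.09), and 17 were lower in Bmal1-/- than in Clock-/- cells. Pycr1, of proline synthesis, was at 35.7, 36.6 and 36.6 TPM in WT wells, 5.66, 4.95 and 5.06 in Bmal1-/- wells and 36.4, 33.2 and 34.5 in Clock-/- wells, and the mitochondrial folate enzyme Aldh1l2 fell by 2.27 in Bmal1-/- cells. Phgdh, the first enzyme of serine synthesis, was at 149, 139 and 144 TPM in WT wells, 74.5, 58.7 and 71 in Bmal1-/- wells and 294, 302 and 272 in Clock-/- wells. The cationic amino acid transporter Slc7a3 was at 32.4, 30.8 and 28.9, at 15.4, 13.4 and 15.7 and at 74.4, 66.1 and 80.1 TPM in the same order of groups. Of the 21, 4 (Phgdh, Shmt2, Slc7a3 and Pck2) fell in Bmal1-/- and rose in Clock-/- cells. Shmt2 and Pck2 are named here because the count is small, after their values were seen. Of 18 cytosolic aminoacyl-tRNA synthetases, 12 fell and 2 rose in Bmal1-/- cells and 4 fell and 4 rose in Clock-/- cells, with Eprs at -0.97 and Wars at -0.94 in Bmal1-/- and Vars at -0.63 and Wars at -0.58 in Clock-/- cells.

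The 9 members with an ERSE fell in 8 cases in Bmal1-/- cells (median -1.08) and in 6 in Clock-/- cells (median -0.56). Of the 22 members whose promoter window held neither ERSE nor ERSE-II, 17 fell in Bmal1-/- cells (median -0.83), and 9 fell and 2 rose in Clock-/- cells (median -0.28). Of the 3 members with an E-box, Calr, Derl3 and Dnajb9, all 3 fell in Bmal1-/- cells and 1, Derl3, fell in Clock-/- cells. Of all 37 members, 30 fell in Bmal1-/- and 20 in Clock-/- cells. The share fallen among all genes with an E-box was not counted.

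THRAP3 is an RNA-processing factor that also binds chromatin, and its ChIP-seq was made with 1 antibody in WT and Bmal1-/- cells. The 4 peak lists differed greatly in length: 808 peaks in WT replicate 1, 6128 in WT replicate 2, 12949 in Bmal1-/- replicate 1 and 12226 in Bmal1-/- replicate 2, from 12296107 to 14961095 tags. WT replicate 1 stood apart, with 0.11% of its tags in peaks against 0.76%, 1.86% and 1.67% in the others. A promoter was counted as bound where a peak overlapped the window from 1000 bases before to 100 bases after any annotated transcript start, in mm10 coordinates.

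By this rule 0 of the 37 genes held a promoter peak in WT replicate 1, against 1.24% of all genes tested. WT replicate 2 had 5 members with a peak, or 13.5%, against 11.7%, Bmal1-/- replicate 1 had 14, or 37.8%, against 31%, and Bmal1-/- replicate 2 had 13, or 35.1%, against 25.9%. Among the 6182 genes whose mean TPM was at least that of the lowest member (24.0), 16% had a peak in WT replicate 2, 41.7% in Bmal1-/- replicate 1 and 34.6% in Bmal1-/- replicate 2. The shares of the members were thus near those of genes at or above this floor, a set not matched to the level of each member. Since the lists differ so in length, no test between genotypes was made.

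The replicates did not name the same genes. A promoter peak in any list was found for 22 members, 59.5% against 43.5% of all genes tested. The matching share of genes at or above the mean TPM of the lowest member was not counted. Of the 22, 6 had a promoter peak in both Bmal1-/- lists, or 16.2% of members against 16.9% of all genes tested: Dnajc10, P4hb, Syvn1, Derl1, Edem1 and Eif2ak3. The peaks of these lists overlapped each other for Derl1, Edem1 and Eif2ak3 but not for Dnajc10, P4hb and Syvn1. Edem1 alone had a peak in 3 lists, and 0 members had it in all 4, against 0.668% of all genes. The 15 others, Hspa5, Hyou1, Pdia6, Chac1, Atf4 and Xbp1 among them, had no promoter peak in any list, and Derl3 had it in WT replicate 2 only, with 8.54 tags (normalised by HOMER to a common library size) and 5.3-fold over input.

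The member peak with the most tags was that of Derl2 in Bmal1-/- replicate 1, followed in that list by Ddit3 (22.8 tags) and Dnajc3 (20.4 tags). In WT replicate 2 the Hsp90b1 peak had the most (20.2 tags, rank 385 of 6128). Its centre lay 222 bases after the nearest transcript start but 2638 bases after the gene start. The Hsp90b1 peak of Bmal1-/- replicate 2 lay elsewhere, 139 bases before the gene start. Derl2 in Bmal1-/- replicate 1 (chr11:71019308-71019556) had 25.1 tags, rank 633 of 12949, and shares its window with the gene Mis12. In WT replicate 2 the Derl2 peak lay at nearly the same place (chr11:71019314-71019536) with 14.0 tags. The Syvn1 peaks were the most enriched over input, at 18.94-fold in Bmal1-/- replicate 1 (chr19:6046798-6047046) and 16.89-fold in Bmal1-/- replicate 2 (chr19:6046413-6046657). Only the second of these covers the ERSE of Syvn1 printed above. For Eif2ak3 the peaks of the 2 Bmal1-/- lists coincided (chr6:70844076-70844324 and chr6:70844077-70844321), 315 and 316 bases before the start.

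Peaks overlapped an ERSE in 6 of the 9 members with one: Calr and Dnajc3 in Bmal1-/- replicate 1, Hsp90b1, Creld2 and Syvn1 in Bmal1-/- replicate 2, and Derl3 in WT replicate 2, 1 list each. A promoter peak in any list was found for 59.5% of members and 43.5% of all genes tested. How often peaks overlap stretches of this length in other promoters was not counted. In Bmal1-/- replicate 1 the Trib3 peak (chr2:152344013-152344261, 12.6 tags) and the Asns peak (chr6:7692979-7693227, 14.1 tags) overlapped their ATF4 elements, the latter only at its edge. The Ddit3 peak of the same list (chr10:127290493-127290741, 22.8 tags) lies at a start that a second annotated gene model of the same name shares.

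**Figure D5:**
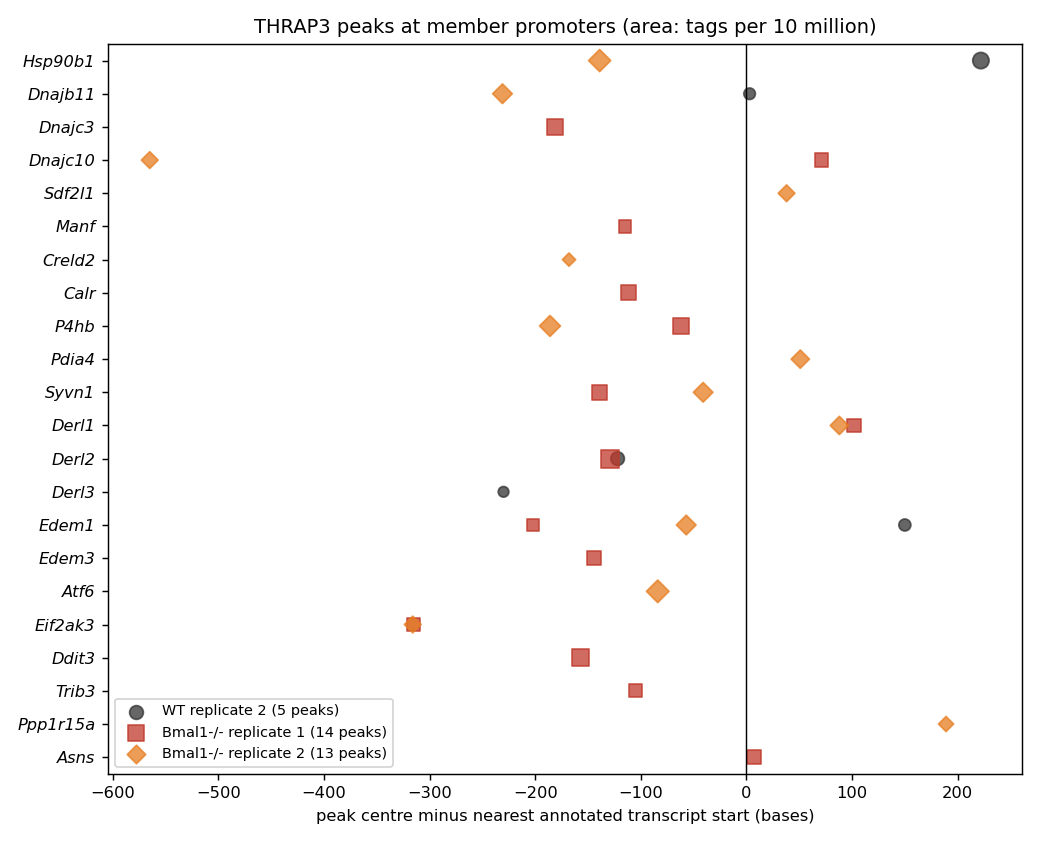
Distance in bases from the nearest annotated transcript start to the centre of each THRAP3 promoter peak (x axis, negative before the start) for the 22 members with a peak, area proportional to normalised tags, by library. WT replicate 1 has 0 peaks here, WT replicate 2 has 5, and the Bmal1-/- replicates have 14 and 13.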

How the data were processed

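The authors aligned strand-specific poly(A) RNA reads with STAR 2.5.0 to mm10 and counted them with featureCounts 1.5.3, and they deposited TPM per gene. The conversion to TPM is not given in the sources used here. They aligned ChIP reads with Bowtie2 2.2.4 and called peaks with HOMER, each immunoprecipitate over the input of its genotype. The deposited peak lists give a signal (tags normalised for library size), a HOMER score and a fold ratio over input. The authors' own comparisons, which hold DESeq2 1.22.1 fold changes and p-values, were not used.

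Genes were matched to GENCODE vM21 (20499 of 20599). A linear model of log2(TPM + 1) over all 9 libraries was made in limma 3.58.1 (R 4.3.3) with a trended prior, for 15031 genes with TPM of at least 1 in at least 3 libraries. The Benjamini-Hochberg adjustment ran over every gene tested, and "rose" or "fell" means an adjusted p under 0.01. The fit and the peak overlap were tested on simulated data. The members and lists were chosen with earlier results of these data known. Every-library values are given for members changed over 2-fold, for the sensors, Xbp1 and Atf4, and for the 2 largest changes per role list and comparison. Of each other pathway list, at most the 2 largest changes per comparison with a mean TPM of at least 5 were to be named. Alternatives changed the pseudocount, filter, scaling, trend, samples and block of the fit, and the window and peak threshold. The eCLIP libraries were not analysed here.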

Additional observations from a re-analysis of the deposited data

Results flagged for a closer look

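The 10 genes below are given again because their changes in the 2 knockout lines were opposite and both past the test, with the difference tested directly between Bmal1-/- and Clock-/- cells by limma. Among the members these were Trib3, with a log2 fold change of Bmal1-/- against Clock-/- of -2.19, and Chac1, with -3.09. In the amino acid response list they were Phgdh (-2.08), Slc7a3 (-2.24), Shmt2 (-0.76) and Pck2 (-0.61), and among the aminoacyl-tRNA synthetases Lars (-0.98) and Rars (-0.83). The rise of Lars in Clock-/- cells did not pass the test under 9 of 19 alternatives. The oligosaccharyltransferase subunit Tusc3 was at -0.95. Qsox1, at 1.27, was the only one of the 10 that was higher in Bmal1-/- cells. Both lines were compared with the same 3 WT libraries.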

How the results depend on the processing

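Expression counts were recomputed under 19 alternatives. Members fallen in Bmal1-/- cells numbered 29 to 32 under the 10 settings that kept all libraries, members fallen in Clock-/- cells 15 to 21, and members lower in Bmal1-/- than in Clock-/- cells 19 to 27. The lowest Clock-/- count came with only the 2 genotypes compared in the fit, and the highest count between the lines with values centred by chromosome. With the replicate number as a block, which does not pair the libraries (deviations of like-numbered libraries correlated at -0.208 to 0.0742, of others at -0.163 to 0.212), 30 members fell and 0 rose in Bmal1-/- cells, 16 fell and 2 rose in Clock-/- cells, and 19 were lower and 0 higher between the lines.

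Leaving out each library in turn gave 28 to 32 fallen and 0 to 0 risen members in Bmal1-/- cells, 14 to 21 fallen and 2 to 3 risen in Clock-/- cells, and 19 to 22 lower and 0 to 2 higher in Bmal1-/- than in Clock-/- cells, the 2 without replicate 3 of Clock-/-. Centring by chromosome turned Dnajb11 (-0.37) and Xbp1 (-0.23) from a higher to a lower value between the lines. Members with a THRAP3 promoter peak in WT replicate 2 numbered 3 around the 5' end of the gene only, 3 among peaks at or above the median score and 1 at 8-fold or more over input. At 8-fold or more, Bmal1-/- replicate 1 kept 3 and Bmal1-/- replicate 2 kept 7, and the latter had 8 at or above the median score. At 8-fold the shares were 2.7% of members against 5.45% of all genes in WT replicate 2, 8.11% against 14.5% in Bmal1-/- replicate 1 and 18.9% against 12.6% in Bmal1-/- replicate 2. With all peaks, the share of members was above that of all genes in each of these 3 lists. Against genes at or above the mean TPM of the lowest member, it was lower in WT replicate 2 (13.5% against 16%). It was also lower in Bmal1-/- replicate 1 (37.8% against 41.7%) and about level in Bmal1-/- replicate 2 (35.1% against 34.6%). TPM gives no depth, so the precision of low values is unknown.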
